A study of Mus musculus with 12 samples.

Results

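The glutathione S-transferases Gsta1, Gsta2, Gsta3, Gsta4 and Gstm1 were read by 9 probes, taken as every probe whose platform gene symbol was one of these 5 names, out of 45281 probes on the array. Gsta1 had 3 probes, Gsta3 and Gstm1 had 2 each, and Gsta2 and Gsta4 had 1 each; 8 of the 9 probes passed the detection filter and were among the 18389 probes tested. The cells were mouse embryonic fibroblasts (MEFs), connective tissue cells grown from embryos of embryonic day 13.5 on the C57BL6/129Sv background. Their transcripts were read on 12 Illumina MouseWG-6 arrays, by hybridization of biotin-labelled cRNA made from total RNA. The 4 genotypes were WT (Sting +/+ Trex1 +/+), TKO (Sting +/+ Trex1 -/-), SKO (Sting -/- Trex1 +/+) and STKO (Sting -/- Trex1 -/-). STING is the adaptor that signals cytosolic DNA to interferon genes, and TREX1 is an exonuclease that degrades such DNA. Cells of each genotype received the vehicle DMSO, or the polycyclic hydrocarbon carcinogen DMBA (dimethylbenz[a]anthracene) at 20 µg/ml for 24 h or for 48 h, with 1 array for each genotype and treatment. No array repeats another, so a treatment difference is a mean over 4 genotypes, and its p-value measures the spread of that difference between these cultures. Genotype was a term of the model, so differences in level between genotypes are not part of that spread. How long the DMSO cells were kept is not stated in the labels used here, and a difference from DMSO therefore cannot be told apart from one of culture time.

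Glutathione S-transferases join the tripeptide glutathione to reactive electrophiles, among them epoxides formed from polycyclic hydrocarbons, and the conjugates are then exported from the cell. Class alpha and class mu are families of soluble enzymes that work as dimers. Many of their genes are targets of NRF2, which acts through antioxidant response elements, and some are targets of the aryl hydrocarbon receptor, which acts through xenobiotic response elements. Class alpha enzymes are known mainly as abundant liver proteins. Gsta1 and Gsta2 encode closely related alpha enzymes, Gsta3 the mouse alpha enzyme known for conjugating aflatoxin epoxide, Gsta4 an alpha enzyme that acts on the lipid peroxidation aldehyde hydroxynonenal, and Gstm1 a class mu enzyme that acts on epoxides.

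In the RefSeq gene table of GRCm38.p6, Gsta4, Gsta1 and Gsta2 lie on chromosome 9, with 0 protein-coding genes between Gsta4 and Gsta1 and 4 between Gsta1 and Gsta2. Gsta3 lies on chromosome 1, and Gstm1 on chromosome 3 next to Gstm2. RefSeq promoter sequences, from 250 bases before to 50 bases after an annotated start, were matched for 4 of the 5 genes. They are shown so that the class alpha genes can be set beside one another and beside Gstm1 of class mu. Capitals mark letters of the antioxidant response element TGACNNNGC or of the xenobiotic response element core GCGTG, searched on both strands. Overlapping matches were allowed, and none occurred in these windows. The windows are chr9:78230419-78230718 on the plus strand (Gsta1), chr9:78347096-78347395 on the minus strand (Gsta2), chr1:21240335-21240634 on the plus strand (Gsta3) and chr3:108017924-108018223 on the minus strand (Gstm1), all on GRCm38.p6 and each written 5′ to 3′ along the gene.
Gsta1: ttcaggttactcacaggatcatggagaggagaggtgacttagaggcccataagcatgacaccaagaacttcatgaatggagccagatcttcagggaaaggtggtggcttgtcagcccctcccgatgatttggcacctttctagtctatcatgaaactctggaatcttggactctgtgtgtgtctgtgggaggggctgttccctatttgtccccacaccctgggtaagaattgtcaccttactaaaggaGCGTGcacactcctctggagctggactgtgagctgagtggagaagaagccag
Gsta2: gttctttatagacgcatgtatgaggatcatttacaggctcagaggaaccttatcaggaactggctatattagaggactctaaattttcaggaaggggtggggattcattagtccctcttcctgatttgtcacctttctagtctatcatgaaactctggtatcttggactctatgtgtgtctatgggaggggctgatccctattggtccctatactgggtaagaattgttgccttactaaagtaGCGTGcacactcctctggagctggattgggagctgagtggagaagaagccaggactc
Gsta3: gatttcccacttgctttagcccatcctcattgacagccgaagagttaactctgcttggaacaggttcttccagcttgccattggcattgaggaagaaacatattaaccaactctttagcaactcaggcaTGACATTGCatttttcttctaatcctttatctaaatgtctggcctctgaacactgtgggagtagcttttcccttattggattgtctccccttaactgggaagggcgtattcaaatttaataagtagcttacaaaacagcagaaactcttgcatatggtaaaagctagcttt
Gstm1: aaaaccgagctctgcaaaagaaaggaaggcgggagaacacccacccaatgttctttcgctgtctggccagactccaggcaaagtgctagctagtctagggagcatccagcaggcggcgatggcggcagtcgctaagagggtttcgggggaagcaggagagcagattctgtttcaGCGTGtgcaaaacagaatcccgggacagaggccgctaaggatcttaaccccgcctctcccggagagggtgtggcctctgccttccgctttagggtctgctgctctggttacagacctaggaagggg

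The Gsta1 and Gsta2 windows were identical at 80.3% of 289 aligned bases. Each held GCGTG once, beginning at position -2 in Gsta1 and at -7 in Gsta2, counted back from the annotated start. Gsta3 was the only one of these 4 windows with TGACNNNGC, at position -121. The Gstm1 window held GCGTG at -76, and a further RefSeq start of Gstm1 places the same letters at -231. Among 32851 promoter windows of the same length, 12.4% held TGACNNNGC and 32.4% held GCGTG. A match of this kind is a description of letters, and neither binding nor elements outside these windows were measured.

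Labels and cell type were checked first. Sting1 was at log2 7.79 to 8.11 in WT and TKO and at 5.06 to 6.00 in SKO and STKO. Trex1 was at 8.11 to 9.46 in WT and SKO and at 6.21 to 7.18 in TKO and STKO. Of the 10 fibroblast markers, 10 were detected on all 12 arrays; at 48 h 5 fell (Col1a1, Col1a2, Vim, Pdgfra and Pdgfrb) and Dcn rose. Of 5 endothelial markers, Pecam1, Cdh5 and Kdr were detected on no array and Emcn fell. Of 10 hepatocyte markers, 8 were detected on no array, among them Alb, Afp and Ttr, and the summed level of the list was 305 to 336 under DMSO, 306 to 339 at 24 h and 349 to 386 at 48 h (linear normalized units). Of that list 1 marker, Apoa2, rose at 48 h, and of 7 epithelial markers 2 rose, Cdh1 and Krt19, while Epcam was detected on no array. The epithelial sum was 242 to 360 under DMSO and 308 to 570 at 48 h, and the part of these markers in the results was not tested. Macrophage markers were present, with 6 of 9 detected on every array, and at 48 h 2 of them rose and 6 fell. Between 34.6% and 37.2% of probes were detected per array.

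All 5 genes were higher after 48 h of DMBA than under DMSO. At 24 h only the Gsta4 probe and the first Gsta1 probe passed the test against DMSO. For Gsta3, Gsta4 and Gstm1 the larger part of the fitted rise came between 24 h and 48 h. A direct test of the later step against the earlier did not pass for these genes (limma adjusted p = 0.135, 0.0559 and 0.391). For Gsta1 and Gsta2 the size of the earlier step is not known. Gsta4 and Gstm1 were well measured before treatment, whereas Gsta1 and Gsta2 began below the detection limit.

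Gsta4 was detected on all 12 arrays. Under DMSO its log2 levels in WT, TKO, SKO and STKO were 8.46, 8.27, 8.34 and 8.00. At 24 h they were 9.56, 9.34, 9.65 and 9.40 in the same order, and at 48 h 11.84, 11.36, 11.92 and 11.58. The 3 treatments did not overlap, and within a treatment the genotypes lay close together. The difference from DMSO was 1.22 ± 0.11 (log2, SE, 4 genotypes; 2.33-fold; limma adjusted p = 0.000948) at 24 h and 3.41 ± 0.11 (10.6-fold; limma adjusted p = 7.14e-07) at 48 h. From 24 h to 48 h it rose by 2.19 ± 0.11 (limma adjusted p = 1.84e-05).

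Gstm1 was detected on all 12 arrays by its brighter probe, probe 1. In the same order of genotypes its log2 levels under DMSO were 9.80, 9.58, 9.47 and 9.23. They were 10.22, 9.92, 10.48 and 9.93 at 24 h, and 11.40, 10.64, 12.19 and 11.65 at 48 h. The 24 h arrays all lay above the DMSO arrays by a small margin (lowest 9.92, highest 9.80). The 48 h arrays lay above the 24 h arrays, also by a small margin (lowest 10.64, highest 10.48). At 48 h TKO was lowest and SKO highest. At 24 h the difference from DMSO was 0.62 ± 0.23 (limma adjusted p = 0.0957), which did not pass. At 48 h Gstm1 had risen by 1.95 ± 0.23 (3.86-fold; limma adjusted p = 0.000273), and from 24 h to 48 h by 1.33 ± 0.23 (limma adjusted p = 0.00896). Without STKO the step from 24 h to 48 h was 1.20 and no longer passed (limma adjusted p = 0.0861).

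Gsta3, read by probe 1, was detected on 11 of 12 arrays, all but STKO under DMSO. Its DMSO levels spread widely, at 6.69 for WT, 6.66 for TKO, 5.83 for SKO and 5.12 for STKO. At 24 h they were 7.06, 6.65, 6.26 and 6.21, and at 48 h 9.47, 8.00, 9.44 and 8.82. The 24 h arrays overlapped those under DMSO, and the 48 h arrays lay above both. The difference was 0.47 ± 0.33 at 24 h (limma adjusted p = 0.358) and 2.86 ± 0.33 at 48 h (limma adjusted p = 0.000248). From 24 h to 48 h Gsta3 rose by 2.39 ± 0.33 (limma adjusted p = 0.00401), the 5th highest difference of 18389 probes.

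Gsta1, read by probe 1, was below detection on all 4 DMSO arrays, where WT, TKO, SKO and STKO had measured log2 levels of 4.64, 4.62, 4.51 and 4.54. At 24 h it was 6.35, 6.17, 5.80 and 5.04, detected in all but STKO. At 48 h it was 8.07, 8.75, 8.09 and 7.52. The 48 h arrays lay above all others. The 24 h arrays also lay above those under DMSO, but in STKO both of these values were below detection. Because only a bound exists for the DMSO level, the 48 h level was at least 5.47-fold higher (measured means 8.11 and 4.58, limma adjusted p = 1.09e-05). The measured 24 h mean was 1.26 ± 0.20 above that under DMSO (limma adjusted p = 0.00484). Set against the DMSO bound it was 1.14-fold higher, but it includes STKO, undetected at 24 h, so 1.14 is not a lower limit. A bound here sets the dim group at each array's lowest signal among detected probes. From 24 h to 48 h the fitted rise was 2.27 ± 0.20 (limma adjusted p = 0.000621).

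Gsta2 was detected on the 4 arrays of 48 h and on no other. Its measured levels were 4.53 to 4.71 under DMSO and 4.80 to 5.38 at 24 h, and at 48 h 7.48 for WT, 8.00 for TKO, 7.07 for SKO and 6.91 for STKO. The 48 h arrays stood well apart, and no order can be read among the values below detection. The 48 h level was at least 3.26-fold above DMSO and at least 2.93-fold above 24 h. Gsta2 entered the test through its 48 h arrays alone, so these bounds are given as a description.

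**Figure D1:**
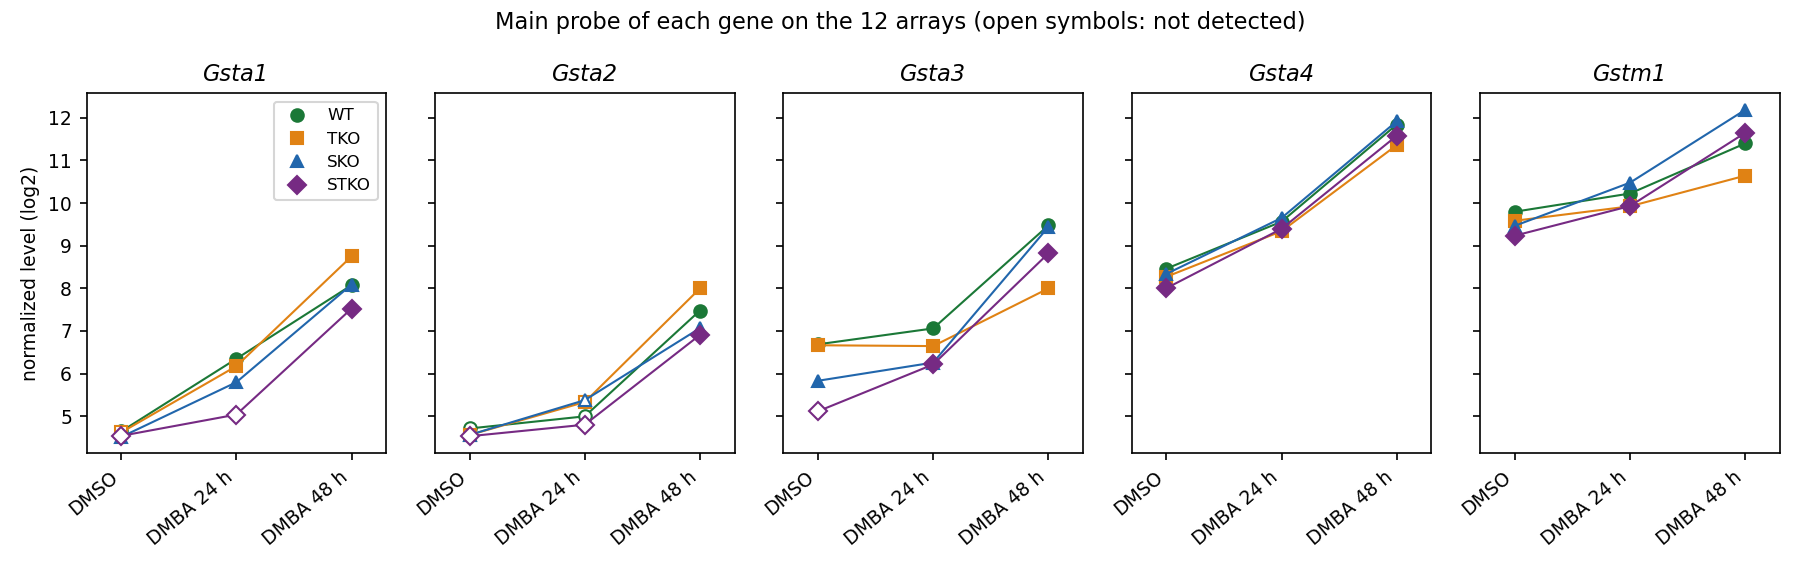
Normalized log2 level (vertical axis) of the main probe of each gene under DMSO and after 24 h and 48 h of DMBA (horizontal axis), 1 line per genotype; open symbols mark arrays on which the probe was not detected. Gsta4 climbs from 8.00 to 8.46 under DMSO to 11.36 to 11.92 at 48 h, and Gsta2 leaves the undetected range at 48 h.

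Counted over probes, 2 of the 8 tested rose at 24 h, where 6.82% of all tested probes rose. At 48 h 7 of 8 rose against DMSO, where 19.1% of all tested probes rose and 20.5% fell. Between 24 h and 48 h 7 of 8 rose, where 5.24% of all tested probes rose. The probe that passed in neither comparison was the dim probe 2 of Gstm1. Gsta2 and the probes 2 and 3 of Gsta1 were detected at 48 h alone and so passed the detection filter through the group in which they were high, which makes these counts descriptions. Every 24 h array lay above every DMSO array for 5 of 8 probes (7.85% of all tested probes did so). Of these, only Gsta4 and Gstm1 probe 1 were detected on every array of both groups. Gsta1 probe 2 and Gsta2 were undetected on all arrays of both, so their order is one of background values. Gsta1 probe 1 was undetected under DMSO and in STKO at 24 h. Every 48 h array lay above every DMSO array for 7 of 8 (16.7% of all tested probes) and above every 24 h array for the same number (5.41%). The median difference over the 8 probes was 0.50 at 24 h and 2.52 at 48 h, beside 0.02 and -0.01 over all tested probes.

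The timing was also tested directly, as the step from 24 h to 48 h minus the step from DMSO to 24 h, a contrast added after the data were seen. It passed for 2 of the 8 probes, with 0.462% of all tested probes higher. These were Gsta1 probe 3 and Gsta2, which were detected at 48 h alone, so that both ends of their early step were background and the contrast says nothing of their timing. For Gsta4, measured on every array, the late step exceeded the early one by 0.97 ± 0.19 (limma adjusted p = 0.0559). For Gstm1 it did so by 0.71 ± 0.40 (limma adjusted p = 0.391).

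**Figure D2:**
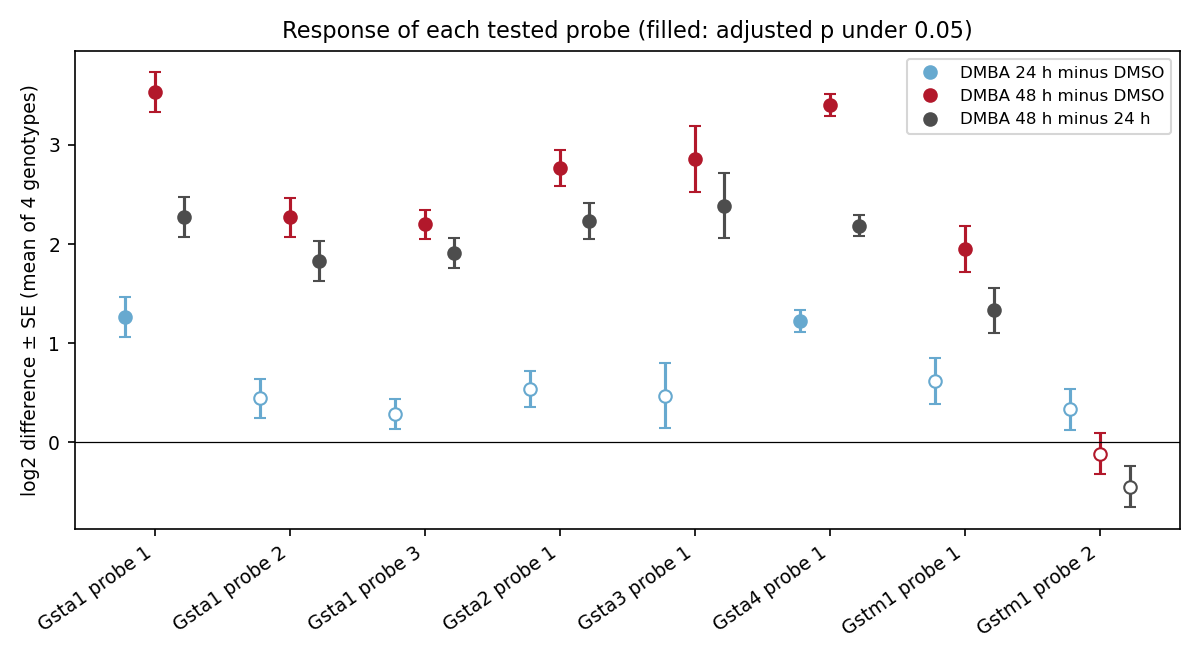
Log2 difference with its SE (vertical axis, mean of 4 genotypes) for each of the 8 tested probes (horizontal axis). The 3 series are 24 h against DMSO, 48 h against DMSO and 48 h against 24 h. Filled symbols have a limma adjusted p under 0.05. Against DMSO 2 probes are filled at 24 h and 7 at 48 h. Gsta4 goes from 1.22 to 3.41, and at 48 h the dim probe 2 of Gstm1 is near 0. For 48 h against 24 h 7 are filled.

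The 48 h response of the class alpha gene Gsta4 was larger than that of the class mu gene Gstm1 in 4 of 4 genotypes under every setting run with all 4. For Gsta1, Gsta2 and Gsta3 the comparison with Gstm1 depended on how signals near background were treated. Gsta4 responded by 3.38, 3.09, 3.58 and 3.58 in the order WT, TKO, SKO and STKO. Gstm1 responded by 1.60, 1.06, 2.72 and 2.41 in the same order. The Gsta4 response exceeded that of Gstm1 in 4 of 4 genotypes, by 1.46 ± 0.54 (log2, SD, n = 4, exact sign-flip permutation p = 0.125, two-sided, adjusted 0.214). With 4 genotypes 0.125 is the smallest p the test can give, so none of the 12 such differences could pass at 0.05.

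Gsta3 exceeded Gstm1 at 48 h by 0.91 ± 0.46 (SD, n = 4), in 4 of 4 genotypes. Gsta1 did so by 1.58 ± 1.13, also in 4 of 4, and Gsta2 by 0.82 ± 1.20, in 2 of 4. The Gsta1 and Gsta2 values, and that of Gsta3 in STKO, begin below detection. Without that correction the differences from Gstm1 were 0.49 for Gsta1, -0.12 for Gsta2, 0.29 for Gsta3 and 1.33 for Gsta4. The class alpha response was then larger in 2 of 4 genotypes for Gsta1, 2 of 4 for Gsta2, 3 of 4 for Gsta3 and 4 of 4 for Gsta4. At 24 h Gsta4 exceeded Gstm1 by 0.60 ± 0.20 (SD, n = 4; 4 of 4 genotypes), while Gsta2 and Gsta3 differed from it by -0.08 and -0.15, each above it in 1 of 4. Between 24 h and 48 h the differences from Gstm1 were 0.94 for Gsta1, 0.91 for Gsta2, 1.06 for Gsta3 and 0.86 for Gsta4.

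**Figure D3:**
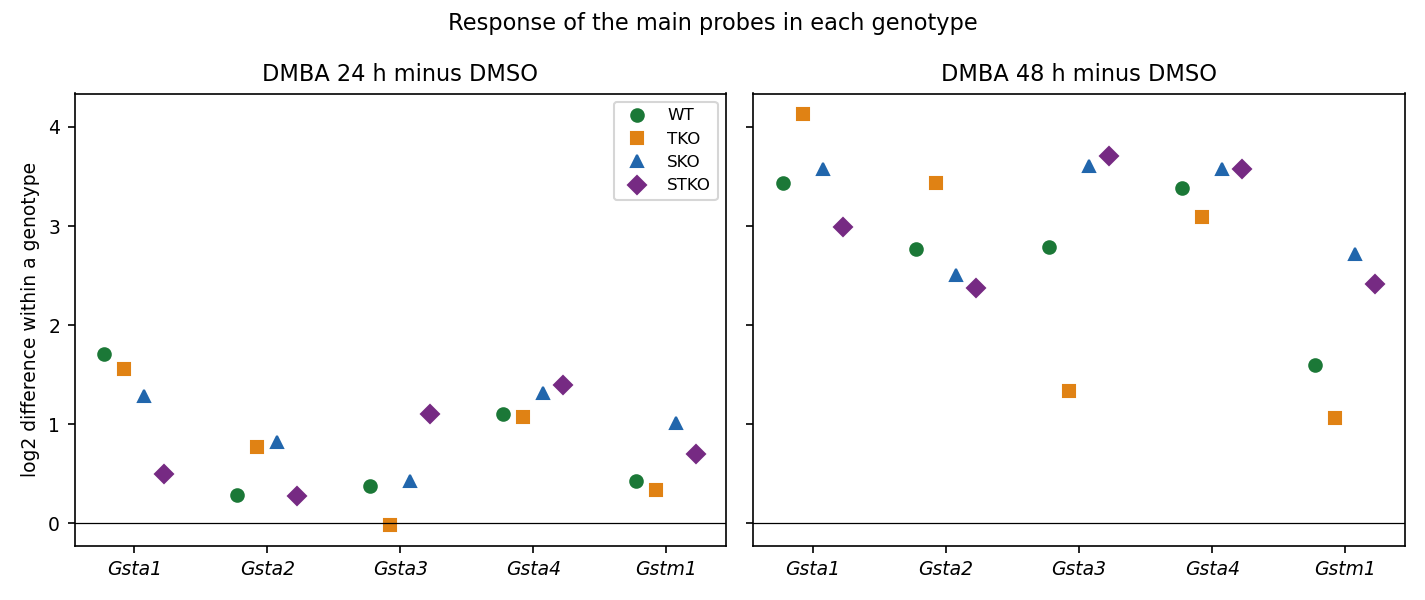
Log2 difference from DMSO within each genotype (vertical axis) for the main probe of each gene (horizontal axis), at 24 h and at 48 h in separate panels, 1 symbol per genotype. At 48 h Gsta4 lies between 3.09 and 3.58 in the 4 genotypes, and Gstm1 between 1.06 and 2.72 with SKO and STKO above WT and TKO.

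The probes of Gsta1 followed each other. Probe 2 was at 7.34, 7.48, 6.96 and 6.49 in WT, TKO, SKO and STKO at 48 h, and probe 3 at 7.11, 7.66, 6.62 and 6.48, while neither was detected on any other array. TKO was highest and STKO lowest at 48 h for each of the 3 Gsta1 probes and for Gsta2. The Pearson correlations of log2 values over the 12 arrays were 0.95 between probes 1 and 2, 0.94 between probes 1 and 3 and 0.97 between probes 2 and 3. The Gsta2 probe correlated with them at 0.97, 0.99 and 0.98. These points share the 3 treatments and the values near background, so they describe the common rise at 48 h. Probe 1 alone was detected at 24 h, and the 48 h level was at least 2.66-fold above DMSO for probe 2 and at least 2.48-fold for probe 3. Gsta1 and Gsta2 are close paralogs, and whether their probes also read the other transcript was not tested, so the split between these genes is uncertain.

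The probes of Gsta3 and of Gstm1 did not follow each other. Probe 2 of Gsta3 was detected on no array, ranged from 4.70 to 5.39 and was not tested. Probe 2 of Gstm1 was detected on 4 arrays, namely SKO under DMSO, WT and STKO at 24 h and WT at 48 h, and ranged from 5.09 to 6.21. Its difference at 48 h was -0.12 ± 0.21 (limma adjusted p = 0.682), and its correlation with probe 1 over the 12 arrays was -0.32. The correlation between the Gsta3 probes was 0.17. The Gsta3 and Gstm1 results therefore rest on 1 probe each, as do those of Gsta2 and Gsta4, which have no second probe.

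**Figure D4:**
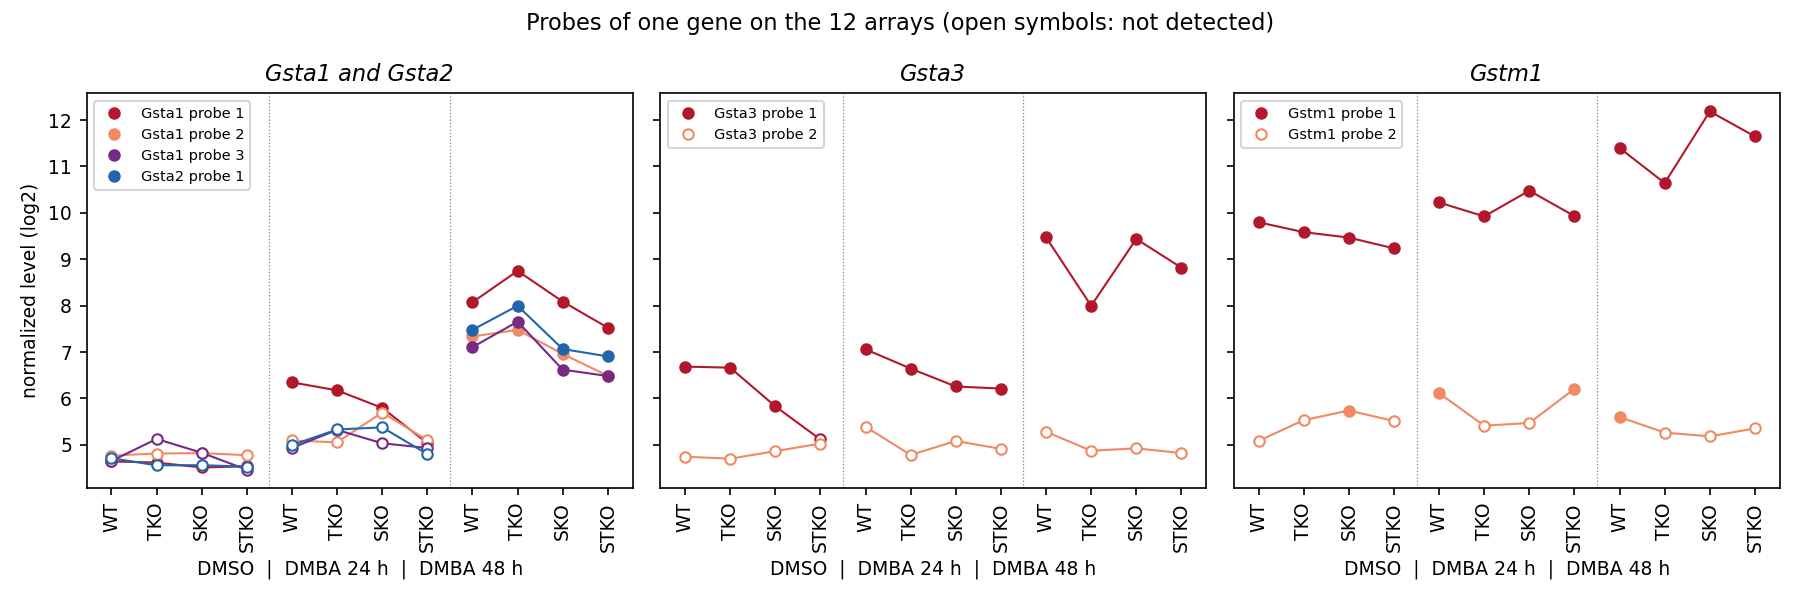
Normalized log2 level (vertical axis) of every probe of Gsta1, Gsta2, Gsta3 and Gstm1 on the 12 arrays, ordered by treatment and genotype (horizontal axis). Gsta1 and Gsta2 share a panel, and open symbols were not detected. The 3 Gsta1 probes rise together at 48 h, whereas probe 2 of Gsta3 stays between 4.70 and 5.39 and probe 2 of Gstm1 between 5.09 and 6.21.

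Of the 5 genes, Gstm1 was the one whose DMBA response passed the test for a difference by STING status. Its response, as the mean of 24 h and 48 h, was lower in WT and TKO than in SKO and STKO by -0.85 ± 0.20 (log2, SE; limma adjusted p = 0.0459). This was 1 of 8 probes, where 3.27% of all tested probes were lower and 6.24% differed in either direction. Taken separately, a choice made after the data were seen, the difference was -0.47 ± 0.23 at 24 h (limma adjusted p = 0.213; 6.07% of all tested probes passed) and -1.24 ± 0.23 at 48 h (limma adjusted p = 0.0289; 2.67% of all tested probes lower). The call did not hold without any 1 genotype, with limma adjusted p of 0.087 leaving out WT, 0.171 leaving out TKO, 0.293 leaving out SKO and 0.087 leaving out STKO, nor without the detection filter, at 0.0913.

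The Gsta3 response at 48 h was 2.79 for WT, 1.33 for TKO, 3.61 for SKO and 3.70 for STKO. The STKO value starts from an undetected DMSO level, and against that array's detection floor it was at least 3.09. Its difference by STING status was -1.09 ± 0.38 over both times (limma adjusted p = 0.12) and did not pass. Gsta4 differed by -0.31 ± 0.15 (limma adjusted p = 0.221), Gsta2 by 0.32 ± 0.23 (limma adjusted p = 0.407) and Gsta1 probe 1 by 0.62 ± 0.29 (limma adjusted p = 0.217). Gsta2 was below detection on every DMSO and 24 h array, and Gsta1 probe 1 under DMSO and in STKO at 24 h. The Gsta1 and Gsta2 differences therefore mix measured levels with background values. At 48 h TKO was lowest for Gsta3, Gsta4 and Gstm1 and highest for Gsta1 and Gsta2. TKO also had the lowest summed level of the 9 macrophage markers under each treatment, at 5097 at 48 h against 25181 to 29589 in the other genotypes (linear normalized units). Most of that sum was Lyz2. At 48 h each of the 9 was lowest in TKO except Cd14, at log2 8.75 there and 8.68 in SKO. Of the 9, Cx3cr1 was undetected in every genotype at 48 h. The part of these markers in the genotype differences was not tested, and in bulk RNA fewer cells of a type and less RNA per cell cannot be told apart. With 1 culture per genotype and treatment, a genotype and its cultures cannot be told apart either.

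For Trex1 status, 0 of 8 probes passed in limma and 0 had an unadjusted p under 0.05. Over all 18389 tested probes 0 passed (0.0%), with 288 at an unadjusted p under 0.05. The fitted values had wide errors, 0.31 ± 0.43 for Gstm1 and 0.06 ± 0.22 for Gsta4. The model had no term for treatment by STING status, so responses that differ by STING status add to its error. The test therefore cannot show that the responses do not depend on Trex1 status. For the level averaged over treatments, 0 of 8 probes differed by STING status in limma (9.76% of all tested probes did), with 2 at an unadjusted p under 0.05. These were Gsta1 probe 3 (0.41 ± 0.12, limma adjusted p = 0.0676) and Gsta1 probe 1 (0.52 ± 0.16, limma adjusted p = 0.0786). Probe 3 was detected at 48 h alone and passed the filter through those arrays. Probe 1 was undetected under DMSO and in STKO at 24 h. Both averages therefore mix measured levels with background values. Without TKO the Gsta3 level difference was 0.79, but WT then stood alone on the STING-competent side, so no p is given. The error of this level test is what remains after genotype is fitted. The spread between genotypes of the same STING status is not in it. These p-values and the 9.76% therefore cannot tell STING status from other differences between the cultures.

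Among other glutathione transferases rises at 48 h were more frequent than over all tested genes (52.6%), and falls about as frequent (21.1%). Of 19 measured genes from other subfamilies and the rest of class mu, 10 rose, 4 fell and 5 did not pass at 48 h against DMSO, with a median of 0.54. Gstm7, named for its detection, is among the 10. It was detected on 0 DMSO arrays, 1 at 24 h and 2 at 48 h, and passed the detection filter only through the 48 h arrays. The count of 10 is therefore a description. Over all 10142 tested genes 19.2% rose, 21.9% fell and the median was -0.02. The microsomal transferases Mgst2, known for making leukotriene C, and Mgst1 rose by 2.72 ± 0.20 (limma adjusted p = 3.74e-05) and 1.72 ± 0.14 (limma adjusted p = 6.55e-05). Within class mu, Gstm6 rose by 1.56 ± 0.16 (limma adjusted p = 0.00016) and Gstm4 by 0.75 ± 0.09 (limma adjusted p = 0.000342). Mgst3, another microsomal member, fell by 1.28 (SE 0.22, limma adjusted p = 0.00167). The class mu neighbours Gstm2 and Gstm5, named after their values were seen, differed by 0.38 (limma adjusted p = 0.063) and 0.27 (limma adjusted p = 0.284).

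At 24 h 4 of the 19 rose and 1 fell, where 7.05% of all tested genes rose and 9.74% fell. Between 24 h and 48 h 3 rose and 1 fell, where 5.31% of all tested genes rose and 5.13% fell. Mgst2 had already risen by 1.83 at 24 h, followed by 0.89 from 24 h to 48 h, an order of steps unlike that of Gsta4. Gstm6 rose by 1.00 and Mgst1 by 0.95 in the later interval, while Mgst3 fell by 0.92.

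**Figure D5:**
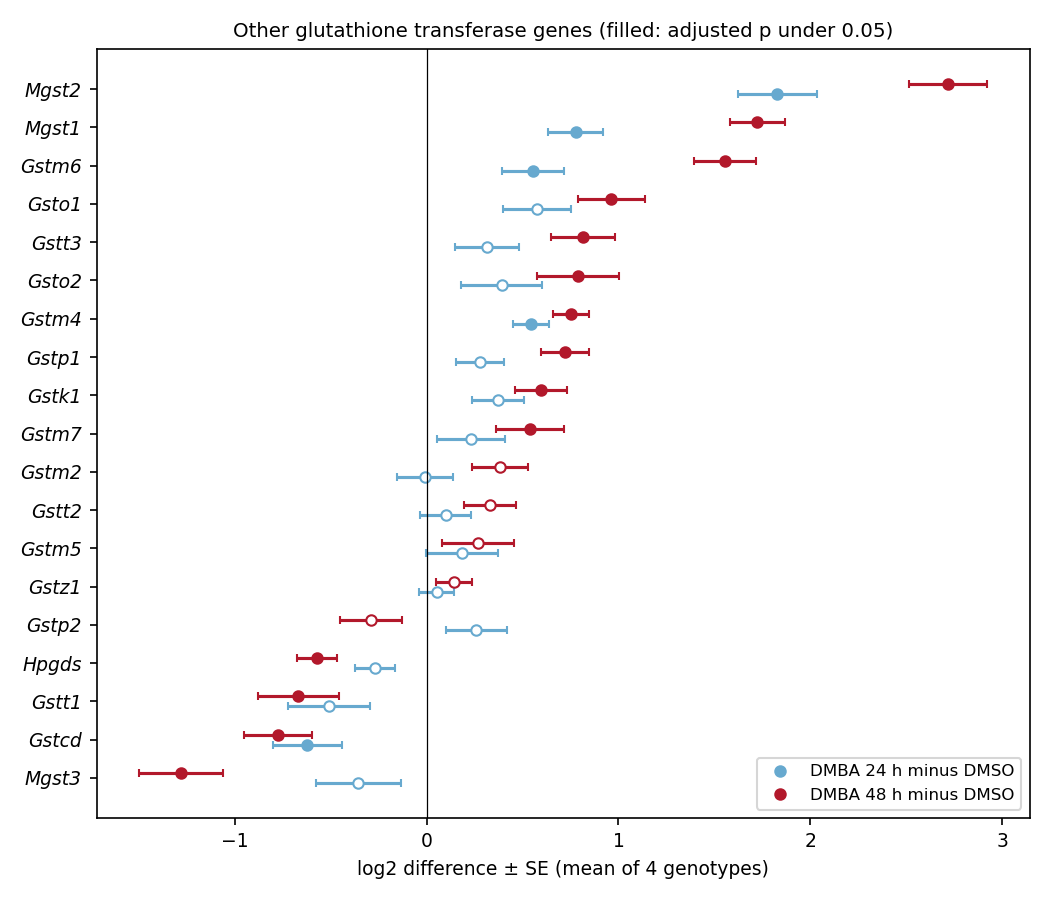
Log2 difference with its SE (horizontal axis, mean of 4 genotypes) of 19 other glutathione transferase genes (vertical axis) at 24 h and 48 h against DMSO; filled symbols have a limma adjusted p under 0.05. At 48 h 10 genes are filled to the right of 0, led by Mgst2 at 2.72, and 4 to the left, led by Mgst3 at -1.28.

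Genes of glutathione supply rose at 48 h as well. Of 11 measured genes of glutathione supply and peroxidases 7 rose and 1 fell (median 0.76), where 19.2% of all tested genes rose and 21.9% fell. The subunits of glutamate-cysteine ligase, the first enzyme of glutathione synthesis, rose by 2.23 ± 0.15 for Gclm (limma adjusted p = 2.14e-05) and 1.76 ± 0.16 for Gclc (limma adjusted p = 9.61e-05). The glutathione peroxidase Gpx1 rose by 1.13 ± 0.15, and the gene that fell was Chac1, which encodes a glutathione-degrading enzyme (-2.73 ± 0.26, limma adjusted p = 0.000103). Between 24 h and 48 h 4 of 11 rose (5.31% of all tested genes). Slc7a11, the cystine importer subunit, detected on 2 of 4 arrays at 24 h, rose by 2.95 ± 0.30. Against DMSO Slc7a11 differed by -0.68 ± 0.30 at 24 h (limma adjusted p = 0.145) and by 2.27 ± 0.30 at 48 h. In the later interval Gclm rose by 1.95, Gclc by 1.43 and Gpx1 by 1.04. Of 5 measured efflux transporters, which export conjugates and drugs, 3 rose at 48 h. They were Abcb1b (1.88 ± 0.35), Abcc5 (0.54 ± 0.11) and Abcc1, which was detected on 3 arrays of 48 h and no other. The Abcc1 mean at 48 h was 1.15-fold above the DMSO bound. That mean includes an undetected array, so 1.15 is not a lower limit.

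Among 9 measured regulators 6 rose and 1 fell at 48 h (median 0.40), beside the same 19.2% and 21.9% over all tested genes. The KEAP1-binding protein Sqstm1 rose by 0.73 ± 0.10, and the aryl hydrocarbon receptor repressor Ahrr, detected on 1 of 4 DMSO arrays, by 1.24 ± 0.24. The NRF2 partner Mafk, detected on no DMSO array and on 3 of 4 at 48 h, had a 48 h mean 1.76-fold above the DMSO bound. That mean includes an undetected array, so 1.76 is not a lower limit. Of 8 measured genes of other hydrocarbon, quinone and redox metabolism 8 rose at 48 h (median 2.15) and 6 at 24 h (median 0.79), where 7.05% of all tested genes rose at 24 h. Aldh3a1, named for its detection, was detected on 0 DMSO arrays, on 1 at 24 h and on 4 at 48 h. It passed the detection filter only through the 48 h arrays, so the count of 8 is a description. Nqo1, a quinone reductase, rose by 4.11 ± 0.24 and Cyp1b1, a monooxygenase that activates DMBA, by 1.49 ± 0.12.

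The genes whose log2 levels followed Gsta4 most closely over the 12 arrays, among 10137 other genes, were Nap1l5 (r = 0.98), Srxn1 (0.98), Txnrd1 (0.97), Zbtb26 (0.97) and Zfp746 (0.97). Srxn1 encodes sulfiredoxin and Txnrd1 thioredoxin reductase. Those nearest Gstm1 were Socs5 (r = 0.95), Blvrb (0.95), Tmem80 (0.94), Gclm (0.94) and Mycbpap (0.94), of which Blvrb encodes biliverdin reductase B. For the mean of Gsta1, Gsta2 and Gsta3 they were Exoc2 (r = 0.97), Srxn1 (0.97), Sqstm1 (0.96), Ampd3 (0.96) and Nap1l5 (0.96). Gsta4 itself correlated with Gstm1 probe 1 at 0.95 and with Gsta1 probe 1 at 0.96. The 12 points share the 3 treatments, and a high value says mainly that genes were low under DMSO and high at 48 h.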

How the data were processed

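The deposited signal of a probe is, per the file headers, an intensity on a linear scale for each of 12 arrays, not normalized between arrays. The deposited detection column is a score that rose with the signal (Spearman 0.98 to 0.99), so 1 minus it was taken as the detection p. A further table of the authors holds log2 values that equal quantile-normalized uncorrected signals minus each probe's median, within 0.00125. Scanner software is not stated in the labels. All value columns had a sample.

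The neqc method of limma 3.58.1 (R 4.3.3) removed background using the detection p, added 16, normalized by quantiles and took log2. Testing required detection (p under 0.01) on 2 or more arrays. A linear model with treatment and genotype (6 residual degrees of freedom), or with treatment by STING or Trex1 status (4), was fitted over all 18389 probes with lmFit and eBayes, and Benjamini-Hochberg adjusted p under 0.05 was called. It was tested on simulated data. Values are limma estimates ± SE unless SD is given. A gene's main probe, written probe 1, has its highest mean. Every probe of the 5 genes is named, and of each gene list the 4 genes with the smallest p in each of the 2 comparisons at 48 h may be. Platform annotation paired 34885 probes with 1 symbol, 18 with several and 10378 with none; 34807 matched RefSeq. The number of arrays limits precision. Alternatives changed the background correction, offset, scaling, filter, genotype term, probe choice and left out each genotype. The genes and lists were chosen with earlier results of these data known.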

Additional observations from a re-analysis of the deposited data

Results flagged for a closer look

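The response of Gstm1 (probe 1) to DMBA passed a test of the difference between STING-competent and STING-deficient cells, but not when any 1 genotype was left out (limma adjusted p = 0.087 to 0.293) or without the detection filter (0.0913). It was 1 of 8 probes, where 6.24% of all tested probes passed. As the mean of 24 h and 48 h it was -0.85 (log2, WT and TKO minus SKO and STKO, limma adjusted p = 0.0459), and at 48 h alone, a choice made after the data were seen, -1.24 (limma adjusted p = 0.0289). At 48 h WT and TKO responded by 1.60 and 1.06, SKO and STKO by 2.72 and 2.41.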

How the results depend on the processing

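The counts of 2 probes called at 24 h and 7 at 48 h were the same under every alternative run, and the count of 7 between 24 h and 48 h was 6 to 7 when a genotype was left out. The count of 1 probe with a STING-dependent response was 0 without the detection filter, 0 for the 24 h response alone (added after the data were seen) and 0 to 0 when each genotype was left out, with Gstm1 at -1.01 to -0.69. The count of 0 probes with a level difference by STING status is not given with a genotype left out, because 1 genotype then stands alone. Without TKO the Gsta3 level difference moved from 0.48 to 0.79. For the class comparison at 48 h, Gsta1 minus Gstm1 was 1.58, and 0.49 without background correction, 0.49 in the authors' values and 0.53 with an offset of 50, with 2 of 4 genotypes above 0 in each. Gsta2 minus Gstm1 turned from 0.82 to -0.12 without background correction, to -0.12 in the authors' values and to -0.12 with an offset of 50. Gsta3 minus Gstm1 moved from 0.91 to 0.29, 0.29 and 0.44 under the same changes and to 1.94 with all tested probes of a gene averaged. Gsta4 minus Gstm1 moved from 1.46 to 2.49 with that average, which includes the dim Gstm1 probe 2. With each genotype left out the differences were 1.09 to 1.92 for Gsta1, 0.30 to 1.17 for Gsta2, 0.78 to 1.12 for Gsta3 and 1.27 to 1.66 for Gsta4. Without background correction the 48 h responses were 2.36 for Gsta1 probe 1, 1.75 for Gsta2, 2.17 for Gsta3, 3.21 for Gsta4 and 1.88 for Gstm1 probe 1, so the probes near background depend most on this choice.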

Other observations

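Outside class alpha and class mu, the omega transferase Gsto1, named after its values were seen, had a larger DMBA response in STING-competent cells, by 0.75 ± 0.16 (log2, SE, limma adjusted p = 0.0381), and the class mu gene Gstm5 a smaller one, by -0.75 ± 0.16 (limma adjusted p = 0.0375). They were the 2 of 19 other glutathione transferase genes that passed this test, 5.26% in each direction. Over all 10142 tested genes 3.02% were higher and 3.51% lower, so the count is near that share. Unlike the Gstm1 call, these 2 were not examined with a genotype left out or without the detection filter. With 1 culture per genotype and treatment, a genotype and its cultures cannot be told apart.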
